A study of Mus musculus with 8 samples.

Results

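Apolipoproteins are the protein shell of lipoproteins, the particles that carry cholesterol, phospholipid and triglyceride through body fluids. Apoa1 and Apoa2 build high-density lipoprotein, Apob is the scaffold of low-density and very-low-density particles, and Apoe, Apoc1 and Apom exchange between particles. Ttr and Rbp4 carry thyroid hormone and retinol. In the mouse conceptus these genes are best known from the visceral endoderm, the outer layer that later feeds the embryo through the yolk sac and that shares much of its secretory programme with liver. Here 9 such genes (Apoa1, Apoa2, Apoa4, Apob, Apoe, Apom, Apoc1, Ttr and Rbp4) were described out of 55471 gene identifiers measured. They were chosen by the measured KO and WT values, as apolipoproteins and carriers of visceral endoderm type, because Apoa1 is lower in knockout than in wild-type blastocysts, and they were found by their symbols in a GENCODE annotation of GRCm38. Every KO versus WT value of these 9 genes is therefore a description.

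The libraries were made from mouse embryos at day 4.5 of development (E4.5), late blastocysts close to implantation. The labels give 3 libraries homozygous for the G77S allele of Isca2 (Isca2 G77S/G77S, called G77S), 2 libraries lacking both copies (Isca2 -/-, KO) and 3 wild-type libraries (WT). Isca2 encodes a mitochondrial protein of iron-sulfur cluster assembly. All embryos were described as coming from hormone-primed Isca2+/- females mated with Isca2+/- males and were cultured before whole-transcript amplification with a single-cell kit. The labels do not name the cross behind the G77S embryos, the construction of either allele, the strain or the number of embryos per library. Whether libraries of 1 genotype come from different litters is not stated, and the p-values below rest on library-to-library spread that may be technical in part.

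Library totals ran from 10323965 to 23842619 estimated counts. Isca2 itself had 89.1, 105 and 133 CPM (a count as a share of its library after TMM scaling) in G77S, 4.84 and 6.20 CPM in KO, and 86.9, 173 and 154 CPM in WT. G77S libraries had shorter fragments, with a mean length of 181.4 to 185.1 bases read from the deposited tables, against 242.7 to 291.1 bases in KO and WT, so in every G77S comparison the genotype and this difference in the libraries cannot be told apart. In bulk blastocysts, fewer cells of a type and less RNA per cell also cannot be told apart.

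Of the 9 genes, 5 had enough reads to be tested (Apoa1, Apoa2, Apoe, Apoc1 and Apom). Apob fell below the filter on low counts, and Apoa4, Ttr and Rbp4 had 0 counts in all 8 libraries. The filter works by group, so a gene can pass through the one genotype in which it is high. In TPM, a level per transcript length that allows genes to be compared within a library, the 9 genes summed to 888, 622 and 735 in G77S, 1981 and 2102 in KO, and 1027, 1196 and 1034 in WT. Apoc1 made up most of this, with 71.3%, 84.3% and 88.8% of the sum in G77S, 73.3% and 73.5% in KO, and 61.9%, 78.2% and 72.9% in WT. Apoc1 and Apoe were abundant in all 3 genotypes, Apoa1 in G77S and WT but not in KO, Apoa2 and Apom stayed below 8 TPM, and the other 4 were at or next to 0.

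The windows around the transcription starts of Apoa1, Apoa2 and Apoe are shown as examples of both directions in the data: Apoa1 was lower in both KO libraries than in every WT library, and Apoe and Apoa2 were higher, as were Apom and Apoc1, whose sequences are not printed. How many of all genes tested separate genotypes without overlap was not counted. Such separation of a member, here and below, is therefore a description. The windows are RefSeq windows of GRCm38.p6, 300 bases from 250 before to 50 after a start, written 5′ to 3′ on the strand of the gene, with CG pairs in capitals. The Apoa1 window is chr9:46228380-46228679 on the plus strand, the Apoa2 window chr1:171224804-171225103 on the plus strand, and the Apoe window chr7:19699139-19699438 on the minus strand.
Apoa1: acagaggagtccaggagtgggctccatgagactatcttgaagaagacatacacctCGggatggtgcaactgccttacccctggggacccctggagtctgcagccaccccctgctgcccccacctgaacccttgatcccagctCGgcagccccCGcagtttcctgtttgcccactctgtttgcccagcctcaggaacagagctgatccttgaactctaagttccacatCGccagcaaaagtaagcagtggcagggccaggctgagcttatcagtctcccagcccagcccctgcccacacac
Apoa2: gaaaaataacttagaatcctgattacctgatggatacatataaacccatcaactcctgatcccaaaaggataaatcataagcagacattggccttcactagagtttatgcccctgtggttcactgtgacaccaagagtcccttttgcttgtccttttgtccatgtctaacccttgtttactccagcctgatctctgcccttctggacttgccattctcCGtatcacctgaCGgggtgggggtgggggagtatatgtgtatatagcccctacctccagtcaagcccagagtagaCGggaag
Apoe: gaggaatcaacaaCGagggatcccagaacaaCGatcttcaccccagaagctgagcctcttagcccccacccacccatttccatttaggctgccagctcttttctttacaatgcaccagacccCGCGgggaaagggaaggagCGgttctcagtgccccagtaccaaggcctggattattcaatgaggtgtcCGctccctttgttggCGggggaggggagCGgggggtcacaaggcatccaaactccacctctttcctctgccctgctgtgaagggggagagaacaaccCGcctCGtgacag

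The Apoa1 window holds 4 CG pairs, and 38.0% of the 32851 mouse windows of this length hold as many or fewer. Apoa2 has 3 (31.4%) and Apoe has 10 (58.6%), around a median of 7 over all windows. Windows were matched for 7 of the 9 genes, and the CG counts of the other 4 were 9 for Apom, 9 for Apob, 5 for Rbp4 and 1 for Apoa4. The RefSeq start differs from the GENCODE start by 249 bases for Apom, 148 for Apoa4 and at most 50 for the rest. The Apom window thus lies almost wholly inside the gene as GENCODE places it. A total of 6 spellings were searched on both strands, and those that share letters can overlap. The letters TATAAA were present in the Apoa2 window, from base 39 of 300, in the Apob window, from base 191, and in 13.6% of all windows. The half-site of nuclear receptors, spelled AGGTCA, was found in none of the 7 windows, while 16.3% of all windows hold it. GATA factors, which act in primitive endoderm and trophectoderm, bind several related spellings. Of these, AGATAA was in none of the 7 windows and in 11.2% of all windows. The Apoa1 window holds both TGATAA (in 9.05% of all windows) and, on the same reverse strand, a match to AGATAG (8.95% of windows). The other 6 windows hold neither, and none of the 7 holds TGATAG (7.29%). The last 3 spellings were added after the sequences were seen. These letters describe the windows and say nothing of which factors bind there.

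Apoa1 (chr9:46228580-46230466, plus strand, GRCm38), the main protein of high-density lipoprotein and the activator of the cholesterol-esterifying enzyme LCAT, had 67.1, 28.5 and 20.2 TPM in G77S, 5.77 and 3.45 TPM in KO, and 138, 81.7 and 164 TPM in WT. The 3 genotypes did not overlap, with KO lowest, G77S between and WT highest. The counts behind these levels were 889, 332 and 199 in G77S, 106 and 80 in KO, and 2145, 888 and 3885 in WT. Mean levels were 38.6 ± 25.1 TPM in G77S (SD, n = 3), 4.61 ± 1.64 in KO (n = 2) and 128 ± 41.9 in WT (n = 3). Among all genes above 0, Apoa1 ranked between 1762 and 3584 in G77S, 5209 and 6148 in KO, and between 913 and 1444 in WT.

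The log2 fold change of Apoa1 in KO versus WT was -4.62 (SE 0.65). It is the value by which the group was chosen, so nothing is read from its call, the only one among the 5 tested members, beside 0.122% of the 13953 genes tested. In G77S versus WT, the log2 fold change of Apoa1 was -1.93 (SE 0.48), and all 3 G77S libraries lay below all 3 WT libraries. The choice of Apoa1 used these same WT libraries, so its values and p-values here are a description and not separate evidence. Apoa1 missed the threshold by edgeR's quasi-likelihood test (unadjusted p = 0.0021, adjusted p = 0.0559). Other tools called it, with an adjusted p of 0.00154 by DESeq2 and 0.0247 by limma-voom, and over all 17 alternatives it was called in 8, with log2 fold changes of -2.70 to -1.58 and adjusted p of 9.68e-07 to 0.207. G77S replicate 1, the highest of its group, bore on this value: without it the log2 fold change was -2.70 with an adjusted p of 0.0221 by edgeR. In G77S versus KO the log2 fold change was 2.70 (SE 0.59), which shares the KO libraries with the choice of the gene and is given without a test.

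Apoa2 (chr1:171225054-171226379, plus strand), the second protein of high-density lipoprotein, had 2, 0 and 0 counts in G77S, 30 and 22 counts in KO, and 0 counts in each WT library. Its levels were 0.46, 0 and 0 TPM in G77S, 6.70 and 3.25 TPM in KO, and 0 TPM in WT. So both KO libraries stood above every other library, on few reads. The KO level was at least 24.0-fold higher than in WT, taking 3 counts over the WT group as the limit that a count of 0 allows. Against G77S the KO level was 29.4-fold higher, with a 95% counting interval of 7.75 to 249. Apoa2 passed the filter on low counts only through KO, the genotype in which it is high, so no test of this difference is given.

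Apom (chr17:35128997-35132050, minus strand), the carrier of sphingosine-1-phosphate in high-density lipoprotein, had 3.4, 1.04 and 0.31 TPM in G77S, 3.87 and 7.01 TPM in KO, and 0.07, 0 and 0.69 TPM in WT. The underlying counts were 44, 12 and 3 in G77S, 69 and 158 in KO, and 1, 0 and 16 in WT. Both KO libraries lay above all WT and all G77S libraries, while G77S and WT overlapped. The log2 fold changes were 4.42 (SE 1.48) in KO versus WT, 2.27 (SE 1.32, adjusted p = 0.374) in G77S versus WT and -2.16 (SE 1.37, adjusted p = 0.405) in G77S versus KO by edgeR's quasi-likelihood test. Apoa1, Apoa2 and Apom all travel on high-density lipoprotein in plasma, and in KO relative to WT the first was lower in every library while the other 2 were higher in every library.

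Apoe (chr7:19696109-19699188, minus strand), the ligand by which remnant particles bind the LDL receptor family, had 184, 68.1 and 62.0 TPM in G77S, 513 and 544 TPM in KO, and 254, 179 and 116 TPM in WT. Both KO libraries were above all others, and G77S overlapped with WT through its replicate 1. Counts were 2827, 922 and 736 in G77S, 11039 and 14686 in KO, and 4567, 2276 and 3187 in WT. Means were 105 ± 68.9 TPM in G77S (SD, n = 3), 529 ± 21.3 in KO (n = 2) and 183 ± 68.9 in WT (n = 3), so G77S and WT differed by about as much as their own SD. In KO versus WT the log2 fold change was 1.77 (SE 0.46). For G77S versus WT it was -0.95 (SE 0.42, unadjusted p = 0.0439, adjusted p = 0.231 by edgeR). Without G77S replicate 1 it was -1.73 (adjusted p = 0.0281), without replicate 2 -0.65 (0.558) and without replicate 3 -0.66 (0.508), all by edgeR. Over the 17 alternatives Apoe was called in 2.

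Apoc1 (chr7:19689481-19692660, minus strand), a small exchangeable apolipoprotein that hinders the uptake of particles by receptors, was by TPM the most abundant of the 9 in every library. Its level was 633, 525 and 652 TPM in G77S, 1451 and 1544 TPM in KO, and 636, 935 and 754 TPM in WT. The counts were 2480, 1835 and 1885 in G77S, 5569 and 8933 in KO, and 2169, 2510 and 4496 in WT. By counts, Apoe exceeded Apoc1 in both KO libraries, G77S replicate 1 and WT replicate 1. For Apoc1, KO again lay above both other genotypes, and G77S and WT overlapped. Apoc1 ranked 308 to 363 among all genes in G77S, 110 to 115 in KO and 203 to 300 in WT. The log2 fold change was 1.06 (SE 0.31) in KO versus WT and -0.32 (SE 0.28, adjusted p = 0.581 by edgeR) in G77S versus WT.

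Both genes fell in G77S relative to KO. For Apoe the log2 fold change was -2.72 (SE 0.47, adjusted p = 0.0114 by edgeR) and for Apoc1 it was -1.38 (SE 0.31, adjusted p = 0.0352), each with all 3 G77S libraries below both KO libraries. These were 2 of the 3 members (Apoe, Apoc1 and Apom) for which neither the choice of the group nor the filter had settled the comparison, and 4.19% of all genes tested were called in it. In G77S versus WT none of the 5 tested members passed, against 3.39% of all genes. There, 2 members had an unadjusted p under 0.05 (Apoa1 and Apoe), and DESeq2 called 1. G77S versus KO shares the KO libraries with KO versus WT, so these values are not separate evidence on KO. In the same way, G77S versus WT shares the WT libraries by which Apoa1 was chosen. The 2 KO libraries and 3 G77S libraries set the precision: Apoe missed the threshold without KO replicate 2 (adjusted p = 0.0665) and without G77S replicate 2 (0.0518). Apoc1 missed it without KO replicate 1 (0.0692), KO replicate 2 (0.219) or G77S replicate 1, 2 or 3 (0.0819, 0.139 and 0.0962). Apoe stayed past the threshold without G77S replicate 1 (0.00229) or G77S replicate 3 (0.0473). All these values are from edgeR's quasi-likelihood test. Apoa1 is not counted among the calls in G77S versus KO, since its choice used the KO libraries.

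**Figure D1:**
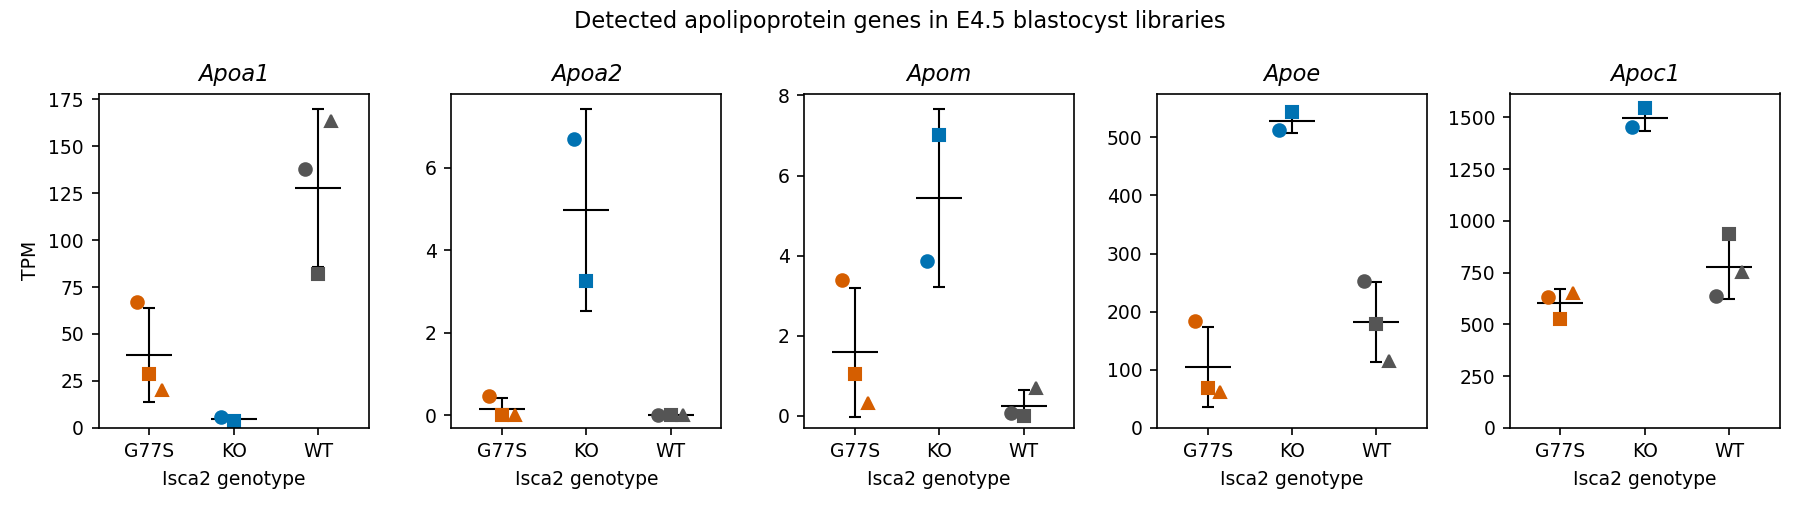
TPM of the detected members in each library, by genotype, on linear axes of their own scale, with 1 point per library, a shape per replicate number, and the mean and SD of each genotype as lines. Apoa1 is lowest in the 2 KO libraries (5.77 and 3.45 TPM), while Apoe (513 and 544 TPM) and Apoc1 (1451 and 1544 TPM) are highest there.

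Ratios within a library do not depend on scaling between libraries, but TPM takes fragment length into account. That weighs more on a short transcript such as Apoc1, and fragments were shorter in G77S. The ratio of Apoa1 to Apoe in TPM was 0.364, 0.419 and 0.325 in G77S, 0.0112 and 0.00635 in KO, and 0.545, 0.456 and 1.41 in WT. The 3 G77S values lay just below the WT values and close to each other, although G77S replicate 1 had higher levels of both genes than its group. The ratio of Apoe to Apoc1, which lie next to each other on chromosome 7, was 0.291, 0.130 and 0.0951 in G77S, 0.354 and 0.352 in KO, and 0.399, 0.192 and 0.154 in WT. Here the genotypes overlapped.

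**Figure D2:**
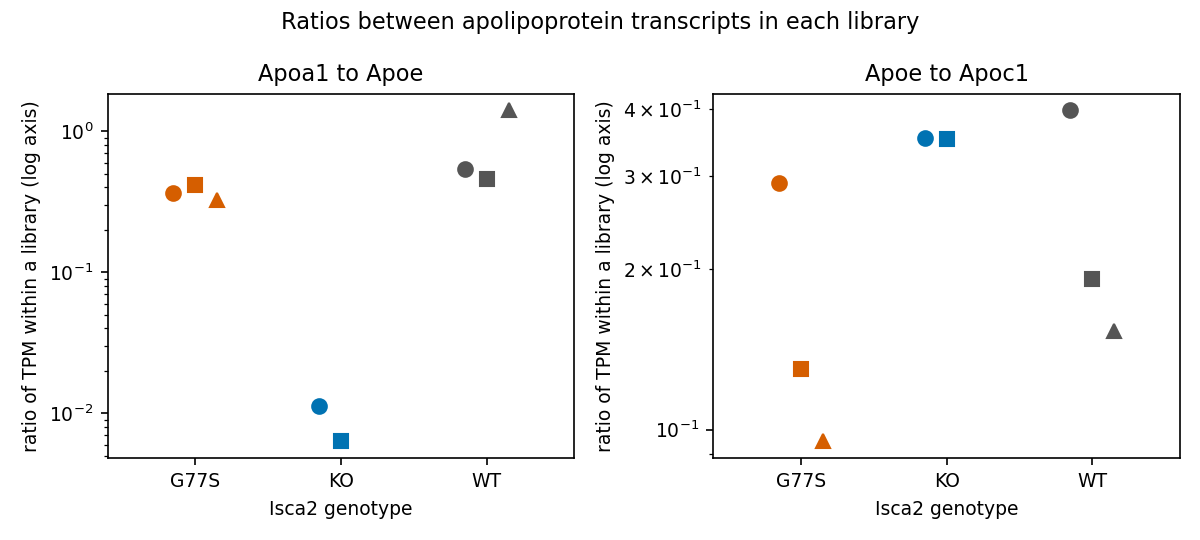
Ratios of TPM within each library, by genotype, on log axes, with 1 point per library and a shape per replicate number. The Apoa1 to Apoe ratio is 0.0112 and 0.00635 in KO, below every G77S and WT library, and the Apoe to Apoc1 ratio overlaps between genotypes.

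Apob (chr12:7977648-8016835, plus strand), the scaffold that Mttp loads with lipid, had 2, 0 and 0 counts in G77S, 0 and 1 counts in KO, and 0 counts in WT, which gives no fold. Apoa4 (chr9:46240696-46243459), an apolipoprotein of intestinal particles, and the carriers Ttr (chr18:20665280-20674321) and Rbp4 (chr19:38116629-38125281) had 0 counts in all 8 libraries. At this depth, 3 counts in a library amount to 0.139 to 0.298 CPM, which is the limit for these 3 genes, covering counting error only. The annotation puts Apoa4 over the antisense genes Gm47528 and Gm10680.

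**Figure D3:**
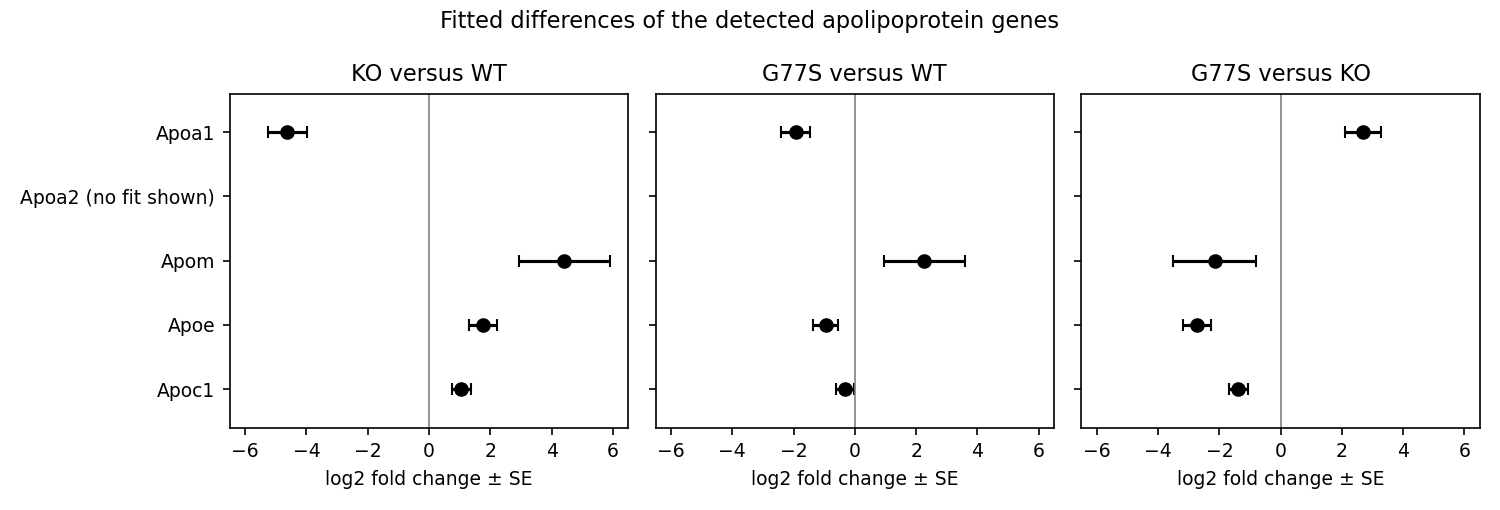
Log2 fold changes with SE of the tested members in each comparison from the edgeR fit over all 8 libraries, with no fit shown for Apoa2, which has 0 counts in WT. KO versus WT is a description, with Apoa1 at -4.62 and Apoe at 1.77, and G77S versus KO has Apoe at -2.72 and Apoc1 at -1.38.

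The median log2 fold change of the 5 tested members was 1.77 in KO versus WT, -0.32 in G77S versus WT and -2.16 in G77S versus KO, beside -0.06, 0.03 and 0.10 over all genes tested. These medians include Apoa1, by which the group was chosen, and Apoa2, which passed the filter only through KO, so they are a description. Apoa2 entered at its fitted value, and at its lower bound the KO versus WT median was also 1.77. Its counts are too few for a fold between G77S and WT. Without Apoa2 the G77S versus WT median would lie between the values of Apoe (-0.95) and Apoc1 (-0.32).

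The neighbours of the 2 gene clusters were looked at because apolipoprotein genes lie in tight groups. Around Apoa1, Apoc3 (7.1 kb downstream by start), Apoa4 (12.1 kb) and Apoa5 (40.1 kb) had 0 counts in all libraries, and the flanking Zpr1, Bud13, Sik3 and Pafah1b2 were not called in G77S versus WT or G77S versus KO. Around Apoe, Apoc2 (21.2 kb), the cofactor of lipoprotein lipase, named after its values were seen, was not called, with log2 fold changes of 0.17 in G77S versus WT and -0.77 in G77S versus KO. Clptm1 (34.2 kb) had 14.8, 18 and 11.2 TPM in G77S, 1.66 and 0.55 TPM in KO, and 10.7, 3.93 and 3.22 TPM in WT. It rose in G77S versus KO (log2 fold change 2.70, adjusted p = 0.0223 by edgeR), the direction opposite to Apoe and Apoc1 beside it, and missed the threshold without KO replicate 2 (0.123), G77S replicate 1 (0.0684) or G77S replicate 2 (0.0828).

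**Figure D4:**
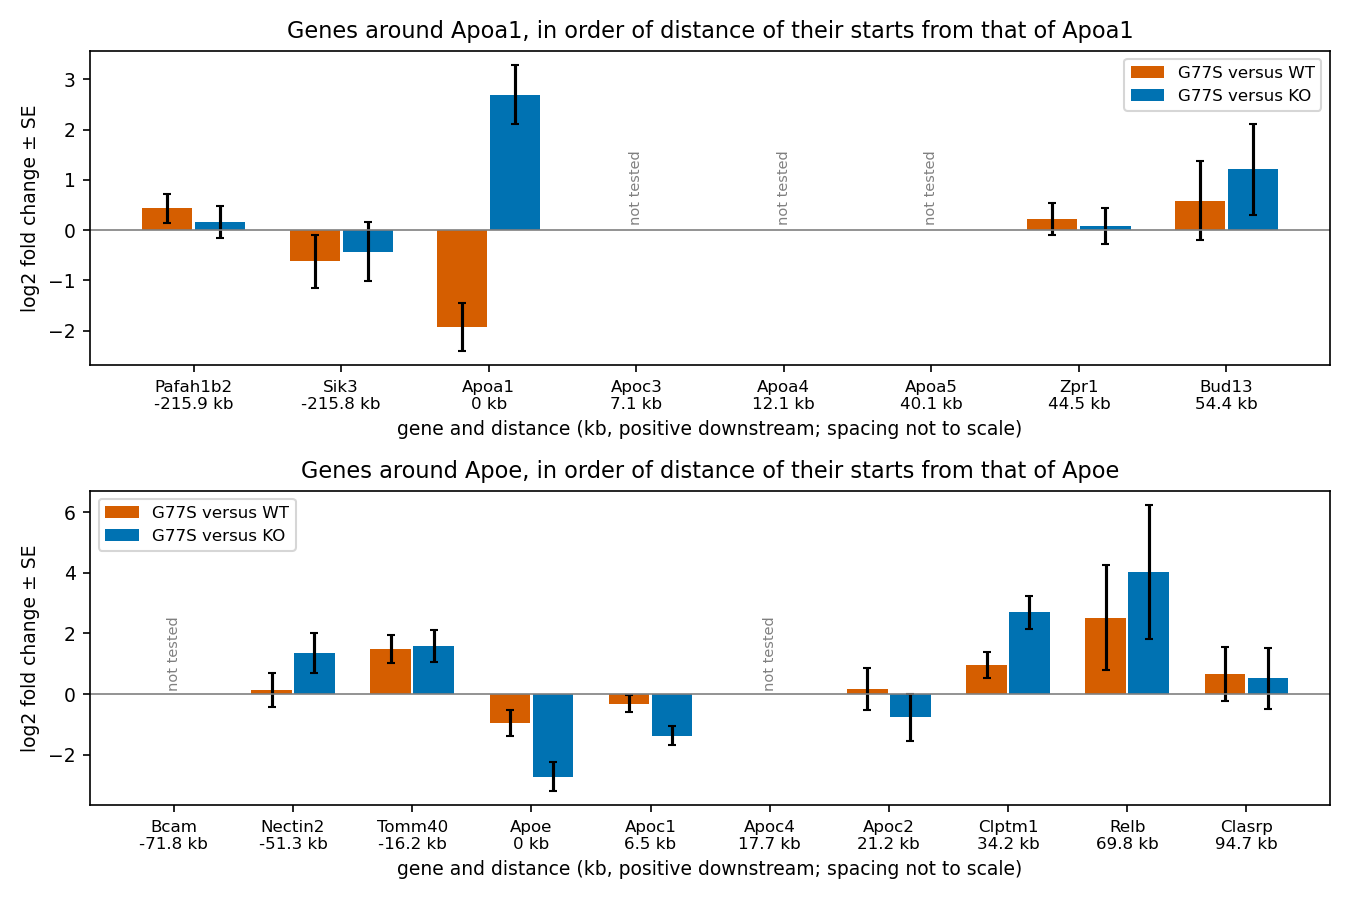
Log2 fold changes with SE of the genes around Apoa1 (upper panel) and Apoe (lower panel), ordered by the distance of their starts, with G77S versus WT and G77S versus KO side by side. In G77S versus KO, Apoe (-2.72) and Apoc1 (-1.38) lie below 0 and Clptm1 (2.70), 34.2 kb away, lies above it.

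The rest of the lipoprotein pathway was read from 7 lists of 121 genes in all, of which 71 were tested. None was called in G77S versus WT by edgeR, with 15 at an unadjusted p under 0.05 and 7 called by DESeq2 (5 higher and 2 lower). In G77S versus KO, 3 rose and 1 fell, which is 5.63% of the 71 and near the 4.19% of all genes called there, so the count is not a result about the pathway. The median log2 fold change over the 71 genes was 0.51, beside 0.10 over all genes. The genes below are those the naming rule took.

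Among genes of particle assembly and export (12 of 17 tested), Surf4, a cargo receptor that carries lipoproteins out of the endoplasmic reticulum, had 53.5, 61.4 and 44.0 TPM in G77S, 15.1 and 13.1 TPM in KO, and 33.8, 13.6 and 22.1 TPM in WT. It rose in G77S versus KO (log2 fold change 1.35, adjusted p = 0.0456 by edgeR) and had 0.89 (adjusted p = 0.107) in G77S versus WT. That call was lost without any 1 of the 3 G77S or 2 KO libraries, and without WT replicate 3 (adjusted p of 0.0593 to 0.215). Sar1b, the small GTPase of the vesicle coat that exports large particles, had 199, 228 and 224 TPM in G77S, 235 and 237 TPM in KO, and 214, 256 and 230 TPM in WT, which overlap between G77S and WT. Mttp, which loads Apob with lipid, was between 0.09 and 1.90 TPM in every library.

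Among receptors (14 of 17 tested), Lrp2, or megalin, the large endocytic receptor of apolipoproteins and retinol carriers, had 12.2, 14.0 and 7.68 TPM in G77S, 1.13 and 1.27 TPM in KO, and 3.41, 2.46 and 0.82 TPM in WT. Lrp2 rose in G77S versus KO (log2 fold change 2.36, adjusted p = 0.0260) and had 1.64 in G77S versus WT (adjusted p = 0.0576), both by edgeR. Its G77S versus KO call was lost without any 1 of the 3 G77S or 2 KO libraries (adjusted p of 0.0596 to 0.154). Lrpap1, the chaperone of this receptor family, was abundant at 1214, 1769 and 1329 TPM in G77S, 663 and 733 TPM in KO, and 790, 789 and 811 TPM in WT, with a log2 fold change of 0.54 (adjusted p = 0.163) in G77S versus WT.

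Among the other apolipoproteins (9 of 24 tested), Apool, a mitochondrial inner-membrane protein that carries the name of the family, had 72.6, 54.5 and 91.2 TPM in G77S, 136 and 154 TPM in KO, and 133, 104 and 105 TPM in WT. It fell in G77S versus KO (log2 fold change -1.45, adjusted p = 0.0164 by edgeR) and had -0.88 (adjusted p = 0.0765) in G77S versus WT. Leaving out KO replicate 2 (0.117) or G77S replicate 2 (0.0585) ended that call. Pon2, a lactonase, had 74.0, 71.5 and 131 TPM in G77S, 71.99 and 26.1 TPM in KO, and 54.3, 92.4 and 155 TPM in WT. A total of 9 genes of this list, Apoa5, Apoc3, Apof, Apon and Pon1 among them, had 0 counts throughout.

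No lipase (6 of 11 tested), no gene of retinol or thyroid hormone carriage (5 of 14 found) and no regulator of apolipoprotein genes (16 of 27) was called in a G77S comparison by edgeR. Pnpla2, the triglyceride lipase of lipid droplets, had 5.42, 5.26 and 4.51 TPM in G77S, 1.56 and 0.49 TPM in KO, and 8.46, 4.89 and 3.10 TPM in WT. Nr1h2, the oxysterol receptor LXR beta, had 12.6, 15.9 and 10.2 TPM in G77S, 7.42 and 2.09 TPM in KO, and 8.48, 5.24 and 7.65 TPM in WT. The hepatic regulator Foxa1 was at 0 in all libraries, and Hnf4a reached at most 0.03 TPM.

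The name visceral endoderm was checked against markers of that layer, and most of its defining markers were at or near 0. Of 20 visceral endoderm markers, 7 (Foxa1, Spink1, Fga, Fgb, Fgg, Slc39a5 and F10) had 0 counts in all 8 libraries and 7 could be tested. Afp, its best-known secreted protein, was at most 0.93 TPM. The summed level of the list was 47.1, 108 and 52.1 TPM in G77S, 124 and 43.2 TPM in KO, and 38.4, 27.2 and 41.6 TPM in WT, most of it in WT from Ctsh, a lysosomal protease, and in KO replicate 1 and G77S replicate 2 from Cited1, a transcriptional coregulator. Alb and 8 others of 16 liver markers were at 0. That list includes 2 of the 9 genes described here, Ttr, which was among those at 0, and Apoa2. Cyp26a1, which breaks down retinoic acid, had 0.20, 0 and 0 TPM in G77S, 16.9 and 1.08 TPM in KO, and 0 TPM in WT. It passed the filter only through KO, so no test against KO is given. Cited1, named after its values were seen, was higher in every G77S and KO library than in WT, with 20.0, 54.5 and 13.5 TPM in G77S, 77.8 and 10.2 TPM in KO, and 4.92, 2.31 and 0.72 TPM in WT, and did not pass in G77S versus WT (adjusted p = 0.0598 by edgeR). The 9 genes are therefore named here by family only.

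Markers of primitive and parietal endoderm also differed between the genotypes. Of 22 listed, 17 were tested. In G77S versus KO 4 fell and 0 rose by edgeR, with a median log2 fold change of -1.51, the direction of Apoe and Apoc1. In G77S versus WT 2 rose (Aqp8 and Col4a1) and 0 fell, with a median of 3.33, while Apoa1, Apoe and Apoc1 had negative values there. The shares of all genes called were 4.19% and 3.39%, in either direction. The median of 3.33 and the calls of Aqp8 and Col4a1 in G77S versus WT are a description. Many genes of the list, Aqp8 and Col4a1 included, were at or near 0 in WT and passed the filter through KO or G77S. Aqp8 had 1, 0 and 0 counts in WT and Col4a1 had 5, 0 and 0. Sox17, Sox7, Amn and Thbd had 0 counts in every WT library. Col4a2, whose value is the median, had 10, 0 and 0 counts in WT. Srgn, a proteoglycan core, had 2.35, 1.06 and 0 TPM in G77S, 217 and 64.1 TPM in KO, and 2.45, 0.49 and 1.04 TPM in WT (G77S versus KO log2 fold change -7.24, adjusted p = 0.0069). Aqp8, a water channel, had 3.67, 1.99 and 0.64 TPM in G77S, 17.4 and 21.9 TPM in KO, and 0.04, 0 and 0 TPM in WT (-3.58, adjusted p = 0.0249). The laminin chains Lamb1 and Lama1 had -2.10 (adjusted p = 0.0273) and -3.13 (0.0388) in the same comparison. All 22 genes summed to 331, 618 and 518 TPM in G77S, 777 and 485 TPM in KO, and 558, 464 and 398 TPM in WT. These sums overlapped between genotypes, and G77S replicate 1 was the lowest library. Leaving out Dab2, which alone exceeded the sum of the others in every library, a choice made after its values were seen, the list summed to 100.04, 49.6 and 56.8 TPM in G77S, 351 and 147 TPM in KO, and 42.3, 25.6 and 29.5 TPM in WT. Much of this reduced sum in KO came from Srgn and Sparc. Sparc, named after its values were seen, had 60.5, 16.1 and 21.8 TPM in G77S, 79.3 and 33.5 TPM in KO, and 11.4, 4.14 and 14.7 TPM in WT. Only in the reduced sum was KO highest, as for Apoe, Apoc1, Apom and Apoa2 but not Apoa1, and every G77S library above every WT library. There, G77S replicate 1 was the highest of its group, as for Apoa1, Apoe and Apom. Of the defining factors, Gata4 and Sox17 were at 0 in WT and at most 0.76 and 1.60 TPM elsewhere, whereas Gata6 had 7.86, 11.1 and 9.31 TPM in G77S, 6.20 and 6.69 TPM in KO, and 7.86, 5.32 and 5.10 TPM in WT. The part of these cells in the apolipoprotein values was not tested.

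Trophectoderm markers summed to 6318, 6233 and 8218 TPM in G77S, 14590 and 13247 TPM in KO, and 17282, 15351 and 15589 TPM in WT, and 7 of 16 fell in G77S versus WT by edgeR, with 0 higher. The share of all genes called there was 3.39% in either direction. Most of each sum came from Krt18, Krt8, Dppa1, Tspan8 and Id2, so it says little of the other markers on the list. In G77S versus WT 3 of the 16 had positive log2 fold changes, none called. They were Tead4 (1.05), Ly6e (0.52) and Cdx2 (0.43), named after their values were seen, and Gata3 had -0.04. Of 14 epiblast markers 2 rose in that comparison (Pou5f1 and Utf1), and Pou5f1 had 41.2, 34.2 and 22.5 TPM in G77S, 1.85 and 2.23 TPM in KO, and 6.11, 4.83 and 2.89 TPM in WT. Nanog of the same list, named after its values were seen, had 56.2, 36.95 and 91.3 TPM in G77S, 20.5 and 9.37 TPM in KO, and 142, 103 and 86.1 TPM in WT, with a log2 fold change of -1.13 in G77S versus WT (adjusted p = 0.107 by edgeR). The part of these shifts in Apoa1, Apoe and Apoc1 was not tested either. Markers of blood summed to at most 5.96 TPM, those of oviduct, uterus and cumulus cells to at most 0.17 TPM and those of fibroblasts to at most 0.06 TPM in any library. Tat, a liver enzyme of tyrosine breakdown, had 18.4, 9.0 and 13.9 TPM in G77S, 0 and 0.56 TPM in KO, and 0, 0.03 and 0 TPM in WT.

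Over the 8 libraries, the 5 tested genes whose log2 CPM followed Apoa1 most closely were Hip1 (Pearson r = 0.98), Psmb9 (0.97), Ttc30a1 (0.96), Birc3 (0.96) and Cidea (0.95). They were picked for this likeness out of all tested genes, and the 8 points share their genotypes and fragment lengths, so r is a description. Cidea, a lipid droplet protein, had 21.9, 6.87 and 9.20 CPM in G77S, 5.85 and 1.38 CPM in KO, and 62.8, 23.9 and 54.4 CPM in WT. Psmb9, a subunit of the immunoproteasome, had 17.1, 7.28 and 9.89 CPM in G77S, 4.61 and 4.98 CPM in KO, and 19.7, 15.2 and 22.8 CPM in WT. Hip1, an endocytic adaptor, varied least, with 16.2, 14.5 and 12.4 CPM in G77S, 9.21 and 9.80 CPM in KO, and 22.6, 18.5 and 24.2 CPM in WT.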

How the data were processed

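The authors deposited 1 RSEM gene table per library, not pooled. It holds expected counts (estimated counts, not normalized), TPM and FPKM, per the file headers. RSEM 1.3.1, STAR 2.6.1c, Trim Galore 0.4.5, DESeq2 1.42.1 and the build mm10 (GRCm38) are listed in the submitters' processing notes. TPM was scaled within each library by the authors, and the deposited FPKM was not used here. Multi-mapped reads are split by RSEM, which can blur near-identical genes. The members' counts were whole numbers in all 8 libraries (tolerance 0.005).

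Symbols came from GENCODE for 55230 of 55471 identifiers (99.6%). Expected counts were rounded and fitted with edgeR 4.0.16 in R 4.3.3 over all 8 libraries (TMM, the group-wise filter keeping 13953 genes, a mean per genotype, quasi-likelihood F test, Benjamini-Hochberg adjustment over all genes, calls under 0.05). SE is the size of the log2 fold change over the square root of F. Alternatives were RLE scaling, no filter, at least 5 CPM in 2 libraries, only the 2 groups compared, a replicate block, DESeq2 1.42.0, limma 3.58.1 (voom on counts, and trend on TPM with pseudocounts of 1 and 0.1) and each library left out. The steps were tested on simulated data. Intervals and limits cover counting error only, since reads carry no molecular identifiers. Named list genes were up to 4 called per list, or the most abundant up to 2. The members and lists were chosen with earlier results of these data known.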

Additional observations from a re-analysis of the deposited data

How the results depend on the processing

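No fold change of a member, or of a list gene taken by the naming rule and printed, changed sign under any alternative run, but the split of calls did. Genes called in KO versus WT numbered 17, and 547 with no filter, 60 with the stricter filter, 11 with only those 2 groups, 646 by DESeq2, and 95 and 86 by limma on log2(TPM + 1) and log2(TPM + 0.1), and 0 to 42 with 1 library left out. In G77S versus WT 473 genes were called, and 1336 with no filter, 746 with the stricter filter, 1538 by DESeq2, and 1466 and 1307 on the 2 TPM scales, and 86 to 638 with 1 library left out. In G77S versus KO 585 were called, and 1411 with no filter, 1009 with only those 2 groups, 1699 by DESeq2, and 1849 and 1744 on the 2 TPM scales, and 161 to 949 with 1 library left out. Limma on log2(TPM + 1) also moved the share of higher genes among those called to 80.4% in G77S versus WT, against 38.5%, and to 83.5% in G77S versus KO, against 42.1%, with all-gene medians of 0.23 and 0.34 (78.8% and 84.2% with a pseudocount of 0.1). For KO versus WT that share was 64.7%, and 47.1% by DESeq2, 52.1% with no filter and 50% with the replicate block. For G77S versus WT it was 50.3% by limma-voom and 48.9% with only those 2 groups, and the all-gene median was 0.03, against -0.01 with the stricter filter.

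Members called in G77S versus WT numbered 0, and 2 with no filter (Apoa1 and Apoe), 1 each (Apoa1) with the stricter filter, DESeq2, limma-voom and both TPM scales, and 0 to 2 with 1 library left out. In G77S versus KO, with Apoa1 not counted, Apoe and Apoc1 were called, and both stayed called by DESeq2, limma-voom and on both TPM scales. Both lost their calls without some of the libraries, as given above. Apom and Apoa2 did not pass the stricter filter.

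The replicate number as a block gave 8 genes in KO versus WT, 411 in G77S versus WT, 600 in G77S versus KO, 1 member (Apoa1) in G77S versus WT and 3 members in G77S versus KO. Libraries of the same number deviated together with correlations of -0.021 to 0.071, so the numbers were not taken to pair them. The counts behind Apoa2 and Apob are too few for a fold between G77S and WT, and 2 KO libraries limit every KO value.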
